A study of Mus musculus with 10 samples.

Results

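Hyaluronan turnover genes and small leucine-rich proteoglycans were followed in ovaries of young mice, aged mice and aged mice given cell-free fat extract (CEFFE, the soluble fraction of fat tissue without cells). The members are the 10 genes Has1, Has3, Hyal1, Hyal2, Cd44, Dcn, Lum, Bgn, Fmod and Ogn, found by symbol among the 55487 genes of the count table. RNA was sequenced from ovaries of C57BL/6J mice, with 4 Control, 3 Aged and 3 Aged+CF ovaries. The labels give an age of 8 weeks for Control mice and of 11 months for both aged groups. The methods of the paper describe the aged mice as 10 months old. In the Aged+CF group, CEFFE was injected into a tail vein (200 µL, 3 µg/µL protein) on a 2-day schedule that lasted 2 weeks, while both other groups had saline injections of equal volume. Mice of all 3 groups were given 10 IU of PMSG, a gonadotropin that drives follicle growth, 48 h before the ovaries were taken. Total counts ran from 15761789 to 21318254 per ovary, and the median was 17396226 for Control, 17306694 for Aged and 17450630 for Aged+CF ovaries.

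Hyaluronan is a long unsulfated sugar polymer that hyaluronan synthases build at the cell membrane and release into the matrix, that hyaluronidases shorten, and that cells bind through receptors such as CD44. In the ovary it is best known as the backbone of the matrix that forms around the oocyte during cumulus expansion. Small leucine-rich proteoglycans are secreted proteins that bind collagen fibrils, set their width and spacing, and hold growth factors of the TGF-β family in the matrix.

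Aged 34 stood apart from the other ovaries. Of 18956 genes tested, 3201 (16.9%) were higher in Aged 34 than in each of the other 9 ovaries, and 3074 (16.2%) were lower. Its summed level of 8 oocyte markers was 7.50 CPM (counts scaled to a common library size after TMM normalization), against 73.9 or more in the other ovaries. Its summed level of 7 lymphocyte markers was 187 CPM against 26.2 CPM in the next highest ovary, Aged 31. Among the members, Dcn, Lum, Cd44 and Ogn were higher in Aged 34 than in any other ovary, 4 of 10. Control 33 and Aged 34 also carried markers of the oviduct, a neighbouring tube, at 389 and 300.4 CPM summed over 5 genes, while the other ovaries held from 1.69 to 32.5 CPM.

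Aged vs Control asks which members differ with age. A gene was called at a fold change of at least 1.5 with an edgeR p, adjusted over all genes tested, under 0.05, or, in a looser call, with an unadjusted p under 0.05. At adjusted p, edgeR called 0 of 10 members, where the background was 11.1% of all genes, while the unadjusted p called 1 member (Has3, lower) and DESeq2 called 1 at adjusted p (Has3). The unadjusted background was 18.2%, and DESeq2 called 14.6% of all genes at adjusted p. The groups did not overlap for 2 members (Hyal2 and Fmod, both lower in Aged), against 27.5% of all genes. The members' median log2 fold change was -0.13, and that of all genes tested was 0.00. These shares lie at or under the background, so no excess of calls was seen among the members.

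Aged+CF vs Aged asks what the treatment moved. At adjusted p, edgeR called 0 of 10 members, the unadjusted p called 1 (Has1, higher) and DESeq2 called 0 at adjusted p, against backgrounds of 0.00528% at adjusted p, 7.96% at unadjusted p and 2.33% by DESeq2. Only Fmod had groups that did not overlap, against 18.6% of all genes. In Aged+CF vs Control, which sets treated aged ovaries beside young ones, edgeR called 0 of 10 members at adjusted p, the unadjusted p called 1 (Fmod, lower), and DESeq2 called 1 at adjusted p (Fmod). The backgrounds there were 0.179% and 7.69%, and 2.79% for DESeq2 at adjusted p, and 2 members (Dcn and Fmod) had groups that did not overlap, against 21.9% of all genes. A single call in 10 is near the unadjusted background. The DESeq2 call of Fmod is above its background, but a single gene is not a result about the members as a group. The members' median log2 fold change was -0.03 with treatment against Aged and 0.09 against Control, and that of all genes was -0.02 and -0.03. The comparisons share ovaries, since the Aged ovaries stand in the first and the second of them and the Control ovaries in the first and the last.

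Leaving out Aged 34 moved these counts. Without it, 1 member (Has1, lower) was called in Aged vs Control at adjusted p and 2 (Has1 and Has3, lower) at unadjusted p, with backgrounds of 16.1% and 22.1% of 19342 genes. For Aged+CF vs Aged, edgeR without this ovary called 0 members at adjusted p and 2 (Has1 and Dcn, higher) at unadjusted p, with backgrounds of 2.87% and 12.2%. In each of these comparisons 4 members then had groups that did not overlap, against 44.6% and 38.3% of all genes. Against Control, Aged+CF then had 0 members called by edgeR at adjusted p and 1 (Fmod, lower) at unadjusted p, with backgrounds of 1.8% and 10.3%.

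**Figure D1:**
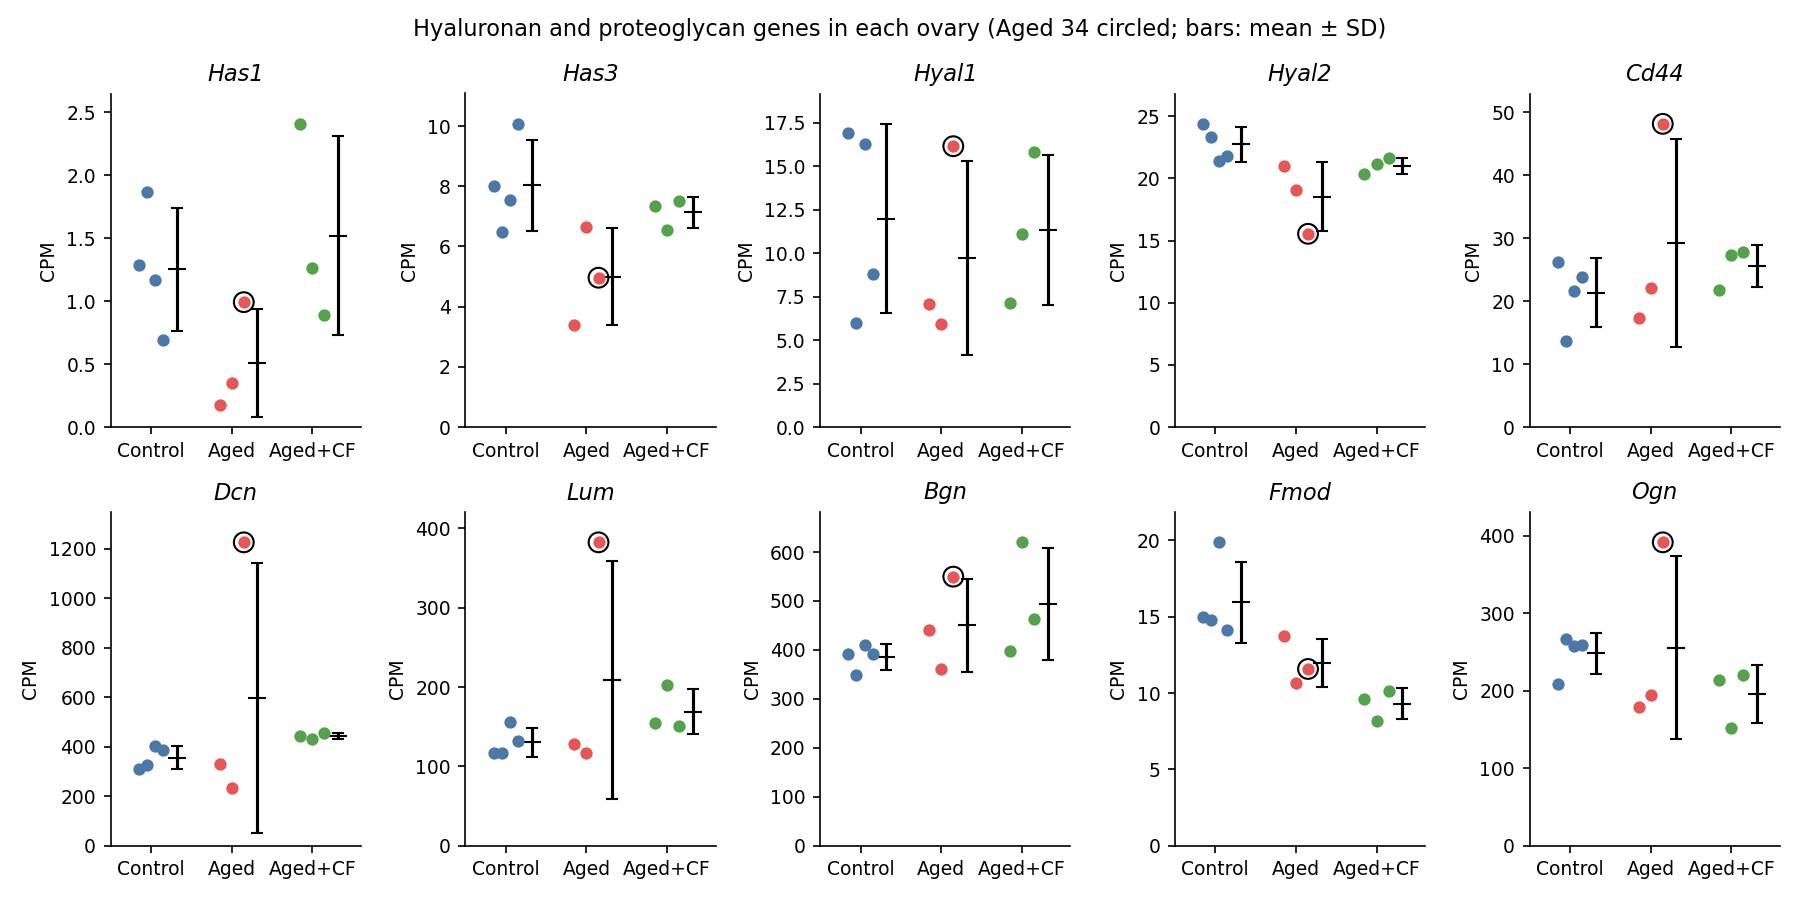
Level of each member in CPM (vertical axes, starting at 0) in Control, Aged and Aged+CF ovaries. Points are single ovaries, a circle marks Aged 34, and bars show the mean and SD. Aged 34 lies far above the other ovaries for Dcn (1226 CPM), Lum (382 CPM) and Cd44 (48.1 CPM).

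Of the hyaluronan synthases, Has1 had the lowest FPKM of the members (a level per gene length, given with the others further on). Its level in Control was 1.28, 1.87, 1.17 and 0.689 CPM (replicates 31, 32, 33 and 34). In Aged it was 0.179, 0.353 and 0.993 CPM (31, 33 and 34), and in Aged+CF it was 2.41, 1.26 and 0.891 CPM (30, 32 and 34). Aged 31 and Aged 33 were the lowest of the 10 ovaries, Aged 34 lay among the Control values, and Aged+CF 30 was the highest, so the Aged range overlapped both other groups.

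These Has1 levels rest on few reads. Aged 31 held 3 Has1 counts (95% Poisson interval 0.619 to 8.77), Aged 33 held 5 (1.62 to 11.7) and Aged+CF 30 held 42 (30.3 to 56.8), intervals that cover counting error only. Mean Has1 was 1.25 ± 0.486 CPM for Control (SD, n = 4), 0.508 ± 0.428 CPM for Aged (n = 3) and 1.52 ± 0.791 CPM for Aged+CF (n = 3). The Has1 difference in Aged+CF vs Aged, a log2 fold change of 1.54 (SE 0.62), passed the unadjusted p of 0.0325 but not the adjusted p of 0.267 by edgeR, and 2 of 3 Aged+CF ovaries were above every Aged ovary. It missed the unadjusted threshold without Aged 31 (1.13, unadjusted p = 0.105), without Aged 33 (1.36, unadjusted p = 0.091) and without Aged+CF 30 (1.04, unadjusted p = 0.152). It also missed it when only the compared groups were fitted (1.53, unadjusted p = 0.059) and with replicate numbers as a block (0.56, unadjusted p = 0.505). In the block fit Aged+CF 30, the only ovary with its number, does not inform the difference.

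In Aged vs Control the Has1 log2 fold change was -1.26 (SE 0.59, edgeR adjusted p = 0.179), with 2 of 3 Aged ovaries under every Control ovary. Without Aged 34, Has1 fell by 2.19 on the log2 scale (SE 0.64, edgeR adjusted p = 0.0372) and both remaining Aged ovaries lay under all 4 Control ovaries. Over the 15 alternatives tried, the adjusted p ran from 0.0372 to 0.4, and without Control 34 the unadjusted p was 0.0397 (log2 fold change -1.46). The Has1 difference in Aged+CF vs Aged without Aged 34 was 2.49 (SE 0.65, unadjusted p = 0.00382, edgeR adjusted p = 0.0687), with all 3 Aged+CF ovaries above both Aged ovaries, and the adjusted p ran from 0.0687 to 0.886 over the alternatives.

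Has3, the other synthase among the members, was at 8.00, 6.48, 7.56 and 10.1 CPM in Control. It was at 3.40, 6.63 and 4.96 CPM in Aged, and at 7.34, 6.55 and 7.50 CPM in Aged+CF. Aged 31 and Aged 34 were under all other ovaries, while Aged 33 lay within the range of Control and of Aged+CF. The log2 fold change of Has3 in Aged vs Control was -0.69 (SE 0.24, unadjusted p = 0.0169, edgeR adjusted p = 0.0798), with 2 of 3 Aged ovaries under every Control ovary. DESeq2 gave an adjusted p of 0.0401, and edgeR without Aged 33 gave 0.0357 (log2 fold change -0.91), in a range of 0.0357 to 0.23 over the alternatives. The unadjusted p was above 0.05 without Control 34 (-0.56, unadjusted p = 0.0517) and without Aged 31 (-0.44, unadjusted p = 0.0805).

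For Has3 in Aged+CF vs Aged the log2 fold change was 0.52 (SE 0.25, unadjusted p = 0.0696), and without Aged 33 it was 0.77 (unadjusted p = 0.01). Per length, in FPKM (fragments scaled by gene length and library total), Has3 was above Has1 in each ovary, by 1.76-fold in Aged+CF 30 up to 11.0-fold in Aged 31. Has2, the synthase induced in cumulus cells at ovulation, had 35 counts over the 10 ovaries and at most 8 in any (Control 33), so it fell under the filter on low counts and was not tested.

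The hyaluronidases Hyal1 and Hyal2 cut the polymer, Hyal2 at the cell surface and Hyal1 in lysosomes. Hyal2 was at 24.4, 23.3, 21.4 and 21.8 CPM in Control, at 20.996, 19.0 and 15.5 CPM in Aged, and at 20.4, 21.1 and 21.6 CPM in Aged+CF. All 3 Aged ovaries were under all 4 Control ovaries, with Aged 34 the lowest, and the Aged and Aged+CF ranges overlapped. The log2 fold change of Hyal2 in Aged vs Control was -0.30 (SE 0.12, unadjusted p = 0.0361, edgeR adjusted p = 0.128), under the fold change needed for a call, and it was -0.15 (unadjusted p = 0.218) without Aged 34. Hyal2 in Aged+CF vs Aged had a log2 fold change of 0.18 (SE 0.13, unadjusted p = 0.188), and 0.06 without Aged 34.

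Hyal1 ranged from 5.99 to 16.9 CPM in Control, from 5.93 to 16.2 CPM in Aged and from 7.17 to 15.8 CPM in Aged+CF, so the spread within each group exceeded the differences between groups. Aged vs Control gave a log2 fold change of -0.30 (SE 0.46) for it, and Aged+CF vs Aged gave 0.22 (SE 0.49). Without Aged 34, which held the highest Aged value, the same differences were -0.85 and 0.79, and neither passed the unadjusted threshold (unadjusted p = 0.0935 and unadjusted p = 0.129). Without Aged 33 or without Aged+CF 34 the sign in Aged+CF vs Aged turned, and the lowest value over the single ovaries left out was -0.10. In FPKM, Hyal1 was under Hyal2 in 9 of 10 ovaries, at 0.251 to 0.745 of its level, and level with it in Aged 34 (ratio 1.02).

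Cd44, the main cell-surface receptor for hyaluronan, was at 26.3, 13.7, 21.6 and 23.9 CPM in Control. It was at 17.4, 22.2 and 48.1 CPM in Aged, and at 21.7, 27.3 and 27.7 CPM in Aged+CF. Aged 34 was 1.73 times the next highest ovary, and the other Aged ovaries lay within the Control range. The Cd44 log2 fold change in Aged vs Control was 0.45 (SE 0.33, unadjusted p = 0.202) with Aged 34 and -0.08 (unadjusted p = 0.76) without it. Without Aged 31, which leaves Aged 34 as 1 of 2 Aged ovaries, it was 0.75 (unadjusted p = 0.0438). The value in Aged+CF vs Aged was -0.19 (SE 0.36) with Aged 34 and 0.36 (unadjusted p = 0.198) without it.

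Decorin (Dcn) and lumican (Lum) coat collagen fibrils and limit their thickening. Dcn was at 309, 327, 402 and 386 CPM in Control, at 331, 233 and 1226 CPM in Aged, and at 445, 431 and 456 CPM in Aged+CF. Aged 34 held 2.69 times the Dcn of the next highest ovary and 4.35 times the mean of the other Aged ovaries, and each Aged+CF ovary was above all 4 Control ovaries and above Aged 31 and Aged 33. Over all genes tested, 1913 (10.1%) were at least 2-fold above the mean of the other Aged ovaries in Aged 34.

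The direction of Dcn turned with that ovary. With Aged 34, Dcn in Aged vs Control had a log2 fold change of 0.75 (SE 0.45, unadjusted p = 0.132) and in Aged+CF vs Aged a value of -0.43 (SE 0.49, unadjusted p = 0.403). Without Aged 34 the values were -0.30 (SE 0.16, unadjusted p = 0.0931) and 0.64 (SE 0.17, unadjusted p = 0.00406). The second passed the looser call, with all 3 Aged+CF ovaries above both Aged ovaries, and its edgeR adjusted p of 0.0702 was the lowest in a range up to 0.863 over the alternatives. Mean Dcn in Aged was 597 ± 547 CPM (n = 3) with Aged 34 and 282 ± 69.4 CPM (n = 2) without it, beside 356 ± 45.1 CPM in Control (n = 4) and 444 ± 12.2 CPM in Aged+CF (n = 3). Leaving out Aged 31 or Aged 33 in place of Aged 34 gave a Dcn log2 fold change in Aged vs Control of 1.06 (unadjusted p = 0.0499) or 1.15 (unadjusted p = 0.0141). The Dcn log2 fold change in Aged+CF vs Control was 0.32 (SE 0.46, unadjusted p = 0.5, edgeR adjusted p = 0.791) in the fit of all 10 ovaries, where the 3 groups share 1 estimate of the spread. It was 0.34 (SE 0.14, unadjusted p = 0.0352) without Aged 34 and 0.34 (unadjusted p = 0.0115) with only the compared groups, higher in 3 of 3 Aged+CF ovaries but by under 1.5-fold. The edgeR adjusted p ran from 0.108 to 0.96 over the alternatives, and the replicate block gave -0.10.

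Lum was at 117, 116, 156 and 132 CPM in Control, 128, 117 and 382 CPM in Aged, and 155, 202 and 150.5 CPM in Aged+CF. Aged 34 was again the highest, at 1.89 times the next ovary (Aged+CF 32), and Aged 31 and Aged 33 lay within the Control range. The Lum log2 fold change in Aged vs Control was 0.68 (SE 0.36, unadjusted p = 0.0892), and -0.06 (unadjusted p = 0.738) without Aged 34. It was 0.96 (unadjusted p = 0.0279) without Aged 31 and 0.99 (unadjusted p = 0.0179) without Aged 33. For Aged+CF vs Aged the Lum value was -0.31 (SE 0.39), and 0.45 (SE 0.17, unadjusted p = 0.0264, edgeR adjusted p = 0.153) without Aged 34, with all 3 Aged+CF ovaries above both Aged ovaries but a fold change under 1.5. Against Control, Lum in Aged+CF had a log2 fold change of 0.38 (SE 0.36, unadjusted p = 0.324), and 0.40 (SE 0.14, unadjusted p = 0.0197, edgeR adjusted p = 0.164 in a range of 0.153 to 0.938) without Aged 34, with overlapping groups.

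**Figure D2:**
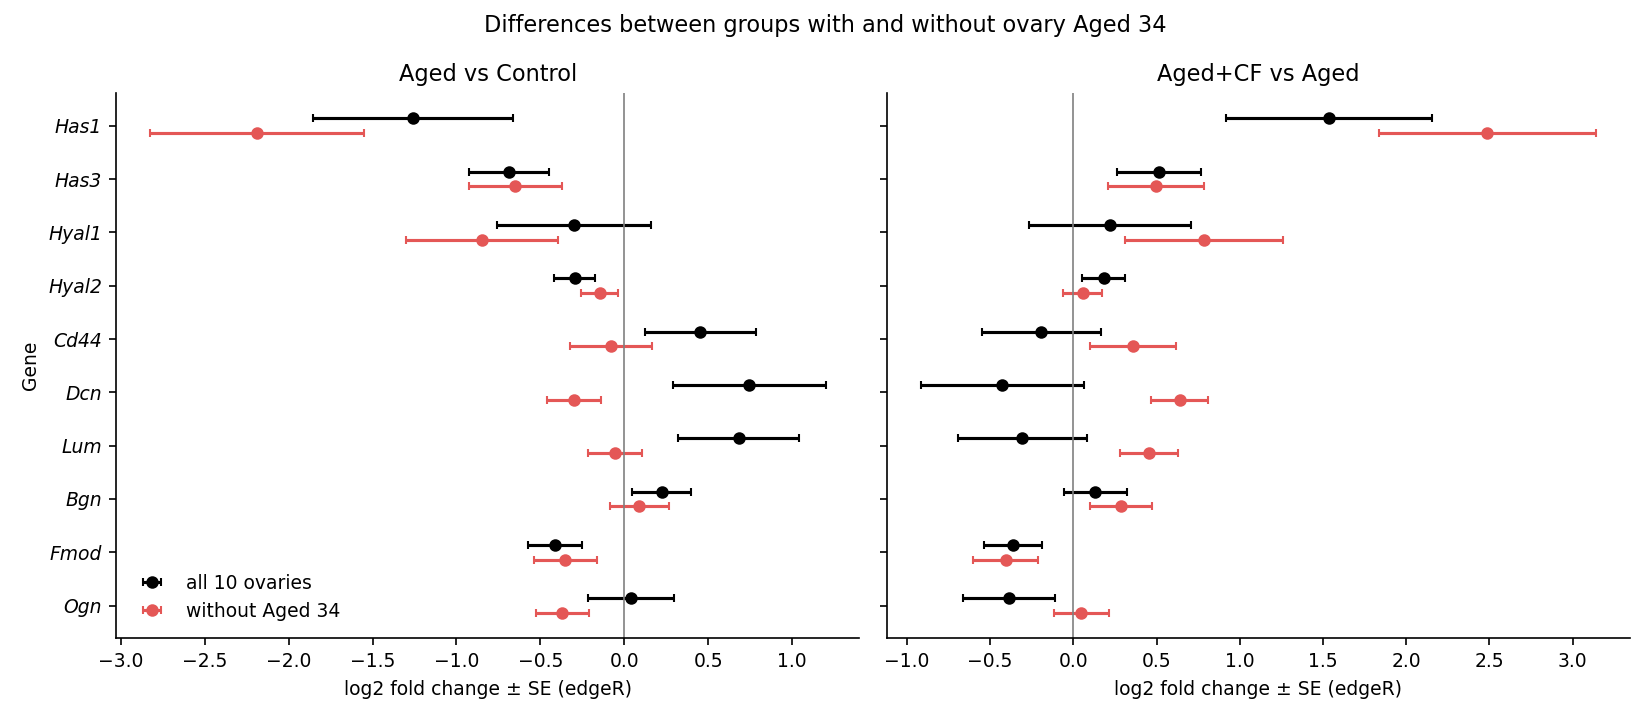
Log2 fold change of each member for the comparisons Aged vs Control and, beside it, Aged+CF vs Aged, with all 10 ovaries and without Aged 34. Points are edgeR estimates and bars are their SE. For Dcn the estimate moved from 0.75 to -0.30 with age and from -0.43 to 0.64 with treatment.

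Biglycan (Bgn), the closest relative of decorin, was at 392, 349, 410.0 and 391 CPM in Control, at 441, 360.0 and 549.7 CPM in Aged, and at 398, 619.9 and 463 CPM in Aged+CF. Aged+CF 32 was the highest and Aged 34 the next, and all 3 groups overlapped. Bgn had a log2 fold change of 0.22 (SE 0.17) for Aged vs Control, 0.13 (SE 0.19) for Aged+CF vs Aged and 0.36 for Aged+CF vs Control (SE 0.17, unadjusted p = 0.0681), none past the unadjusted threshold. Without Aged 34 these were 0.09, 0.29 (unadjusted p = 0.154) and 0.38 (SE 0.15, unadjusted p = 0.0347, edgeR adjusted p = 0.213), the last higher in 2 of 3 Aged+CF ovaries than in all 4 Control ovaries and by under 1.5-fold. The unadjusted p of that difference ran from 0.0206 (without Aged+CF 30) to 0.354 (without Aged+CF 32) over the alternatives, was 0.0332 without Aged 33, 0.0338 with only the compared groups and 0.0462 by DESeq2, and its adjusted p ran from 0.18 to 0.851. Without Aged+CF 32 or without Aged 33, the sign in Aged+CF vs Aged turned, to -0.06 at the lowest.

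Fibromodulin (Fmod), which shares a collagen site with lumican, was at 15.0, 14.8, 19.9 and 14.2 CPM in Control. It was at 13.7, 10.7 and 11.6 CPM in Aged and at 9.63, 8.16 and 10.1 CPM in Aged+CF. The groups were in order without overlap, with all 4 Control ovaries above all 3 Aged ovaries and these above all 3 Aged+CF ovaries, and Control 33 was the highest. Mean Fmod was 16.0 ± 2.64 CPM in Control (n = 4), 11.98 ± 1.57 CPM in Aged (n = 3) and 9.30 ± 1.02 CPM in Aged+CF (n = 3).

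The Fmod log2 fold change in Aged+CF vs Control was -0.78 (SE 0.17), a level 1.71-fold lower, with an unadjusted p of 0.000845 and an edgeR adjusted p of 0.103, in 3 of 3 Aged+CF ovaries. It passed the looser call under all 15 alternatives, from -0.83 to -0.65 (the latter without Control 33). Its adjusted p ran from 0.003 (DESeq2) to 0.437, and was 0.0467 with only the compared groups fitted. In Aged vs Control it was -0.41 (SE 0.16, unadjusted p = 0.0303) and in Aged+CF vs Aged -0.36 (SE 0.17, unadjusted p = 0.0635), both short of a 1.5-fold change. Without Control 33 these were -0.29 (unadjusted p = 0.0932) and -0.36 (unadjusted p = 0.0426), and without Aged 34 they were -0.35 and -0.41, so Fmod did not turn with Aged 34 as Dcn and Lum did.

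Osteoglycin (Ogn), also called mimecan, was at 209, 267, 258 and 259 CPM in Control, at 179, 195 and 391 CPM in Aged, and at 214, 152 and 221 CPM in Aged+CF. Aged 34 was the highest of all ovaries and Aged+CF 32 the lowest, and Aged 31 and Aged 33 were under all 4 Control ovaries. The Ogn log2 fold change in Aged vs Control was 0.04 (SE 0.26, unadjusted p = 0.877), and -0.37 (SE 0.16, unadjusted p = 0.044) without Aged 34, a change of under 1.5-fold. The Ogn value in Aged+CF vs Aged was -0.38 (SE 0.28, unadjusted p = 0.194), and 0.05 without Aged 34. Against Control, the Ogn value of Aged+CF was -0.34 (unadjusted p = 0.215), without Aged 34 it was -0.32 (SE 0.14, unadjusted p = 0.044), a change of under 1.5-fold, and with replicate numbers as a block it was -0.68 (unadjusted p = 0.0337).

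Set side by side per length, the proteoglycans made up most of the members' transcripts. Median FPKM in Control was 104.7 for Ogn, 52.5 for Lum, 52.4 for Dcn, 41.9 for Bgn and 4.19 for Fmod. For the hyaluronan genes, median FPKM in Control was 2.97 for Hyal2, 1.89 for Cd44, 1.64 for Hyal1, 0.832 for Has3 and 0.227 for Has1. Lum and Dcn were within each other's spread in Control, while Ogn was the highest in all 4 Control ovaries and Fmod the lowest proteoglycan in all 10 ovaries. Median FPKM of Ogn was 67.7 in Aged and 85.3 in Aged+CF.

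The summed FPKM of the 5 proteoglycans was 226, 243, 283 and 263 in the Control ovaries. It came to 212, 172 and 545 in the Aged ovaries, and 260.4, 269.5 and 264 in the Aged+CF ovaries. Aged 34 held the highest sum, and Aged 31 and Aged 33 the lowest of the 10 ovaries. The share of Ogn in that sum ran from 37.2% to 43.6% in Control ovaries and from 21.9% to 32.8% in Aged+CF ovaries, with Aged ovaries at 31.9%, 38.5% and 28.0%, so each Aged+CF ovary was under each Control ovary. The share of Fmod was 1.52% to 2.02% in Control, 1.72% and 1.48% in Aged 31 and Aged 33, 0.582% in Aged 34, and 0.827% to 1.05% in Aged+CF. The ratio of Lum to Fmod in FPKM ran from 11.6 to 13.9 in Control ovaries and from 22.2 to 37.0 in Aged+CF ovaries, with Aged ovaries at 13.9, 16.3 and 49.3, again with each Aged+CF ovary above each Control ovary. The shares and ratios were not tested.

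**Figure D3:**
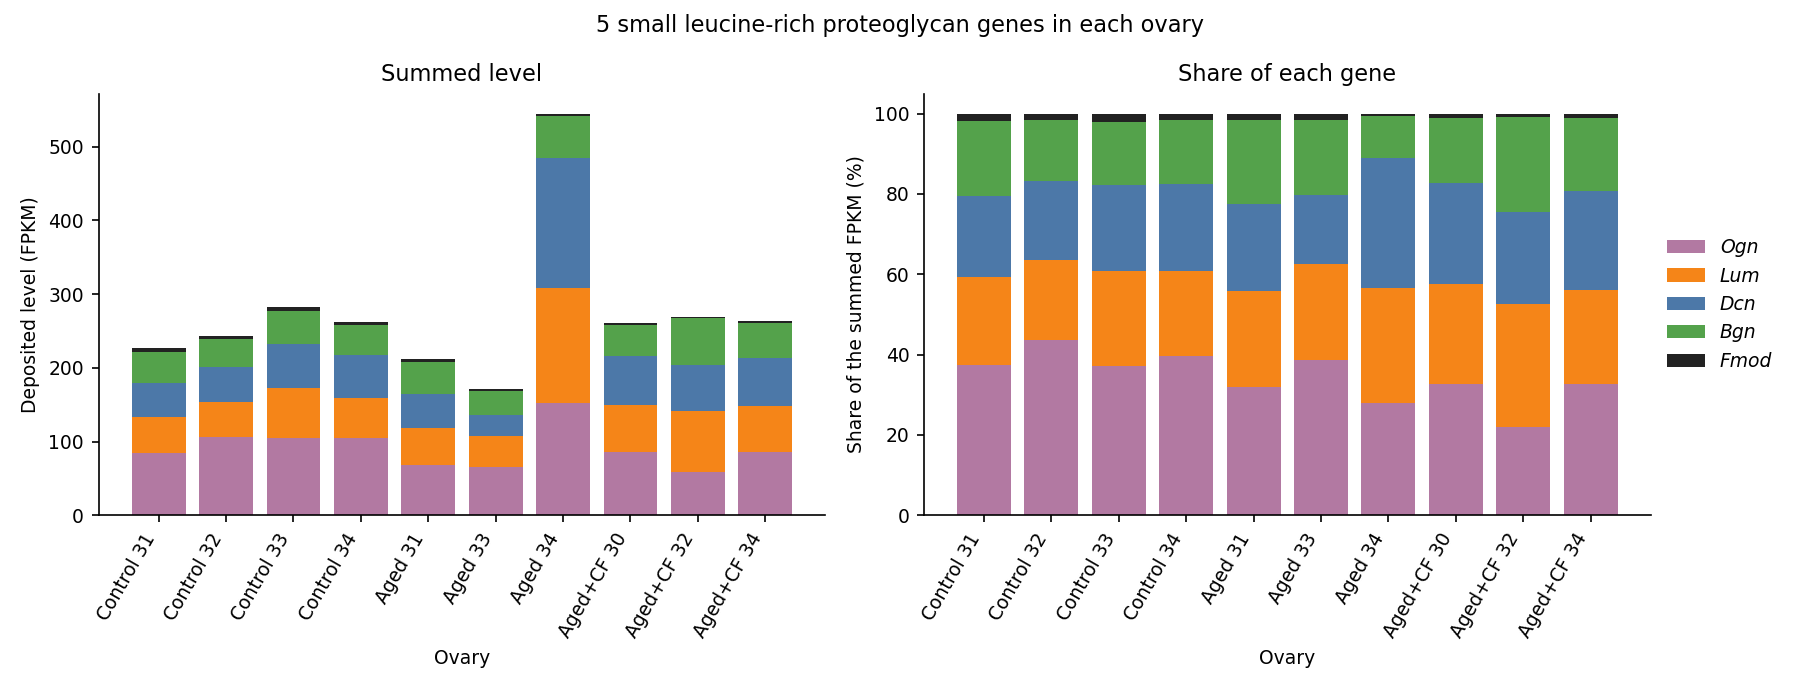
Summed FPKM of the 5 proteoglycans (left) and the share of each in that sum in percent (right), with 1 bar for each of the 10 ovaries and colours for the genes. The sum is 545 FPKM in Aged 34. Dcn makes up 32.3% of it there, and Ogn 37.2% to 43.6% in Control.

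Markers of cell types moved with some of these results, and in bulk tissue fewer cells of a type and less RNA per cell cannot be told apart. The 8 fibroblast and stroma markers, which this tissue expresses throughout, summed to 3908, 3499, 4195 and 3903 CPM in Control, 3117, 1686 and 4202 CPM in Aged, and 3458.5, 3779 and 4466 CPM in Aged+CF. Their most abundant gene was Col1a2, at 1435 CPM in Aged 34, and edgeR called 0 of 8 at adjusted p in Aged vs Control (1 lower at unadjusted p, 1 lower by DESeq2) and 0 of 8 in Aged+CF vs Aged (0 at unadjusted p, 0 by DESeq2). Without Aged 34, edgeR called 2 of 8 lower at adjusted p with age, and with treatment 0 of 8 at adjusted p and 5 of 8 higher at unadjusted p, the direction that Dcn and Lum then had. Over all genes the shares called were then 16.1% with age, and 2.87% and 12.2% with treatment. Aged 33, the ovary with the lowest Dcn, also had the lowest stroma sum, while Aged 34 was near the Control values for the stroma sum and far above them for Dcn. The 5 smooth muscle markers, led by Acta2, summed to 1520, 1699, 1881 and 1802 CPM in Control, 999, 1254 and 2428 CPM in Aged, and 1433, 963 and 1474 CPM in Aged+CF, highest in Aged 34. None of the genes on either list was at 0 in all ovaries, and their part in the results was not tested.

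The 5 oviduct genes (4 of them tested), led by Ovgp1, summed to 3.38, 3.05, 389 and 10.2 CPM in Control, 2.80, 1.69 and 300.4 CPM in Aged, and 32.5, 3.10 and 7.45 CPM in Aged+CF, and Dynlrb2 had no count in 6 ovaries. Control 33 had the higher oviduct sum but 402 CPM of Dcn and 21.6 CPM of Cd44, against 1226 and 48.1 CPM in Aged 34. The 7 lymphocyte markers, led by Jchain (152 CPM in Aged 34), summed to 7.47, 6.36, 6.03 and 5.57 CPM in Control, 26.2, 11.6 and 187 CPM in Aged, and 10.3, 10.6 and 8.53 CPM in Aged+CF. The 7 macrophage markers, led by Lyz2, summed to 388, 417, 450.0 and 412 CPM in Control, 666, 697 and 1399 CPM in Aged, and 621, 592 and 661 CPM in Aged+CF. Leukocytes also carry Cd44, and Cd44, lymphocyte and macrophage sums were each highest in Aged 34. No gene of these 3 lists was at 0 in all ovaries, and their part in the results was not tested.

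Among the other lists in Aged vs Control, 5 of 5 corpus luteum, 5 of 5 erythroid, 4 of 5 blood endothelium, 4 of 7 lymphocyte, 3 of 7 macrophage and 2 of 4 theca markers rose at adjusted p, and 7 of 8 oocyte markers and 1 of 4 lymphatic endothelium markers fell. Over all genes, edgeR called 11.1% there at adjusted p. Of the granulosa, surface epithelium, adipocyte, smooth muscle and oviduct markers edgeR called 0 at adjusted p there, at unadjusted p it called 4 of 8 granulosa markers lower, and DESeq2 called 2 of these 8 lower. Without Aged 34, 3 of 7 lymphocyte and 1 of 7 macrophage markers rose at adjusted p in Aged vs Control, and 1 of 5 smooth muscle and 1 of 8 granulosa markers fell, while the counts of the corpus luteum, erythroid, blood endothelium, theca, oocyte and lymphatic endothelium lists were as before. With treatment, in Aged+CF vs Aged, edgeR called 0 markers of any of the 14 lists at adjusted p, and at unadjusted p it called 5 of 7 lymphocyte, 4 of 5 erythroid and 1 each of the theca, corpus luteum, macrophage and blood endothelium markers lower, and 1 each of the granulosa and oocyte markers higher. DESeq2 called 4 of 5 erythroid markers and 1 each of the lymphocyte, corpus luteum and blood endothelium markers lower at adjusted p. Without Aged 34, edgeR called 4 of 5 erythroid markers and 1 each of the corpus luteum and blood endothelium markers lower and 1 of 8 oocyte markers higher at adjusted p, and at unadjusted p 5 of 8 oocyte and 1 each of the granulosa, lymphatic endothelium and adipocyte markers higher, and 5 of 5 erythroid, 2 of 5 corpus luteum, 2 of 5 blood endothelium, 2 of 4 theca and 1 of 7 lymphocyte markers lower.

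Against Control, Aged+CF ovaries had 0 markers of the 14 lists called by edgeR at adjusted p, while DESeq2 called 2 of 5 corpus luteum and 1 of 7 macrophage markers higher. At unadjusted p, edgeR called 4 of 5 corpus luteum, 4 of 5 erythroid, 3 of 7 macrophage, 2 of 4 theca and 1 of 7 lymphocyte markers higher, and 5 of 8 oocyte, 2 of 8 granulosa and 1 of 4 oviduct markers lower. Without Aged 34, edgeR at adjusted p called 5 of 8 oocyte and 1 of 8 granulosa markers lower and 2 of 7 macrophage and 1 of 5 corpus luteum markers higher. Fmod was lower in the same comparison, and the part of these cell types in that was not tested.

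Beyond the members, 79 genes of hyaluronan and proteoglycan metabolism were listed and 68 were tested. In Aged vs Control 5 rose and 5 fell at edgeR adjusted p, beside the 11.1% of all genes, and their median log2 fold change was 0.00. For Aged+CF against Aged or against Control edgeR called 0 of 68 at adjusted p, with 1 higher and 5 lower at unadjusted p in the former (7.96% of all genes) and 4 lower in the latter (7.69%). The DESeq2 calls were 6 higher and 8 lower with age (background 14.6%), 1 higher and 1 lower for Aged+CF against Aged (2.33%), and 1 lower against Control (2.79%).

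Versican (Vcan), a large proteoglycan that binds hyaluronan in the follicle matrix, was at 202, 194, 191 and 186 CPM in Control, at 89.2, 37.9 and 50.6 CPM in Aged, and at 157, 119 and 166 CPM in Aged+CF. The 3 groups did not overlap, with Aged the lowest and Aged+CF between. Vcan fell by 1.71 on the log2 scale in Aged vs Control (SE 0.26, edgeR adjusted p = 0.0055), in 3 of 3 Aged ovaries, and was called under 14 of 15 alternatives (adjusted p 0.0566 with the replicate block). The Vcan log2 fold change in Aged+CF vs Aged was 1.32 (SE 0.26, unadjusted p = 0.000553, edgeR adjusted p = 0.15), higher in 3 of 3 Aged+CF ovaries. With all ovaries Vcan was the 1 gene of the lists that edgeR called higher there at unadjusted p, against 5 without Aged 34. At adjusted p, DESeq2 called 1 of 11 hyaluronan-binding matrix genes higher in that comparison and 1 of 7 keratan sulfate synthesis genes lower.

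Of the other hyaluronan-binding matrix proteins, Hapln1, which links hyaluronan to proteoglycans such as versican, rose by 2.003 on the log2 scale in Aged vs Control (SE 0.53, edgeR adjusted p = 0.0328), from a mean of 1.29 to 5.23 CPM, in 3 of 3 Aged ovaries. Itih2, a heavy chain that is transferred onto hyaluronan in cumulus matrix, fell by 1.20 (SE 0.36, edgeR adjusted p = 0.0488), from 19.2 to 8.32 CPM, in 3 of 3. The clearance receptor Stab2 rose by 1.51 (SE 0.41, edgeR adjusted p = 0.0368), in Aged 31 and Aged 33 (28.9 and 20.95 CPM) but not in Aged 34 (7.28 CPM), which lay within the Control range of 4.40 to 9.08 CPM. Another receptor, Hmmr, fell by 1.16 (SE 0.43, unadjusted p = 0.0219, edgeR adjusted p = 0.094), from 15.7 to 7.03 CPM, in 3 of 3 Aged ovaries. Of 7 receptors outside the members, DESeq2 called 1 higher and 1 lower with age at adjusted p.

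The calls of Hapln1, Itih2 and Stab2 were close to the threshold. The adjusted p of Hapln1 ran from 0.00275 to 0.11 over 15 alternatives, and the call was lost without Control 31 (0.0766), Control 32 (0.0785), Control 33 (0.0672), Control 34 (0.0799), Aged 33 (0.11) or Aged+CF 30 (0.052), and with the replicate block (0.0827). That of Itih2 ran from 0.00821 to 0.136, and the call was lost without Control 31 (0.0648), Control 32 (0.101), Control 33 (0.0987), Control 34 (0.0963), Aged 31 (0.136), Aged 33 (0.113) or Aged+CF 30 (0.0755), with no filter (0.0697) and with the block (0.0973). That of Stab2 ran from 0.00335 (without Aged 34) to 0.125, and the call was lost without Control 31 (0.0683), Control 32 (0.0947), Control 34 (0.0944), Aged 31 (0.125), Aged 33 (0.0829) or Aged+CF 30 (0.0569), with no filter (0.0502), with only the compared groups (0.0713) and with the block (0.0662). Without Aged 34, Itih5, another heavy chain, was called lower too (-0.82, edgeR adjusted p = 0.0231, both Aged ovaries under all Control ovaries), against -0.58 (edgeR adjusted p = 0.118) with it.

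Of the 5 listed genes lower in Aged+CF vs Aged at unadjusted p, the hyaluronidase Hyal3 had a log2 fold change of -1.001 (SE 0.43, unadjusted p = 0.0409, edgeR adjusted p = 0.288), and in Aged vs Control a value of 0.91 (SE 0.39, unadjusted p = 0.0428, edgeR adjusted p = 0.143). Its mean levels were 0.726 CPM in Control, 1.37 CPM in Aged and 0.689 CPM in Aged+CF, and its counts ran from 8 to 32 per ovary, in a gene that overlaps Hyal1. Without Aged 34 the Hyal3 values were -1.13 (unadjusted p = 0.0415) and 1.06 (unadjusted p = 0.041). Lyve1, a hyaluronan receptor of lymphatic vessels and some macrophages, had a log2 fold change of -0.76 (SE 0.34, unadjusted p = 0.0469, edgeR adjusted p = 0.301) with treatment, and of -0.28 (unadjusted p = 0.283) without Aged 34, the ovary where it was at 32.8 CPM against 13.8 and 15.4 CPM in Aged 31 and Aged 33. The others were Chst1 (-2.19, unadjusted p = 0.0052), Csgalnact1 (-0.98, unadjusted p = 0.0278) and Aspn.

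In precursor synthesis, Ugp2, which makes UDP-glucose, rose by 0.71 in Aged vs Control (SE 0.10, edgeR adjusted p = 0.00497), from 65.9 to 108 CPM, and Gfpt2, which starts the hexosamine pathway, fell by 0.72 (SE 0.17, edgeR adjusted p = 0.0237), from 28.3 to 17.2 CPM, each in 3 of 3 Aged ovaries. The Ugp2 call was made under all 15 alternatives. The adjusted p of Gfpt2 ran from 0.00207 to 0.0692, and its call was lost without Control 32 (0.0649), Control 34 (0.0651), Aged 31 (0.0671) or Aged 33 (0.0622), and with the replicate block (0.0692). Of 7 precursor genes the other 5 were not called with all ovaries. Without Aged 34, Uap1, which makes UDP-N-acetylglucosamine, rose by 0.67 (SE 0.12, edgeR adjusted p = 0.00601, both Aged ovaries above all Control ovaries), against 0.42 (edgeR adjusted p = 0.124) with it.

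In the synthesis of chondroitin and dermatan sulfate, the chains that decorin and biglycan carry, with all ovaries 2 of 20 genes fell and 0 rose with age by the adjusted p of edgeR (3 lower and 2 higher at unadjusted p, 3 lower and 1 higher by DESeq2). The shares called over all genes were 11.1%, 18.2% and 14.6% in the same order. The sulfotransferase Chst3 fell by 1.44 (SE 0.19, edgeR adjusted p = 0.00494), from 22.4 to 8.26 CPM, and the chain polymerase Chsy1 fell by 0.82 (SE 0.12, edgeR adjusted p = 0.00515), from 87.7 to 49.6 CPM, each in 3 of 3 Aged ovaries. Both were called under 14 of 15 alternatives, the exception being the replicate block. Without Aged 34, 2 fell and 3 rose, beside 16.1% of all genes. Those that rose were Chst15 (0.60, edgeR adjusted p = 0.0162, against 0.53 and 0.0203, a fold change of under 1.5, with Aged 34), Xylt1 (1.45, edgeR adjusted p = 0.0118, against 0.98 and 0.193) and Csgalnact1 (1.20, edgeR adjusted p = 0.04, against 0.95 and 0.096). Both remaining Aged ovaries were above all 4 Control ovaries for Chst15 and Xylt1, and Csgalnact1 overlapped.

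In keratan sulfate synthesis, the chains that lumican and fibromodulin can carry, 2 of 7 rose in Aged vs Control at edgeR adjusted p, beside 11.1% of all genes. B3gnt2 rose by 0.81 (SE 0.16, edgeR adjusted p = 0.0125) in 3 of 3, and Chst1 rose by 1.96 (SE 0.55, edgeR adjusted p = 0.0402) in Aged 31 and Aged 33 (61.6 and 136 CPM), while Aged 34 (16.3 CPM) lay within the Control range of 11.5 to 25.2 CPM. The B3gnt2 call was lost with the replicate block only (0.0645). The Chst1 call was made under 3 of 15 alternatives, with an adjusted p from 0.00226 to 0.163. It was lost without Control 31 (0.0591), Control 32 (0.104), Control 33 (0.0741), Control 34 (0.101), Aged 31 (0.0678), Aged 33 (0.163), Aged+CF 30 (0.0618), Aged+CF 32 (0.0579) or Aged+CF 34 (0.0563), with no filter (0.0541), with only the compared groups (0.0812) and with the block (0.14). It was made without Aged 34.

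Of the 10 small leucine-rich proteoglycans outside the members that were tested, edgeR called 0 in Aged vs Control at adjusted p and 1 at unadjusted p, osteomodulin (Omd, log2 fold change -1.14, edgeR adjusted p = 0.0618), and DESeq2 called 1 lower. Without Aged 34, edgeR called 1 lower at adjusted p, Tsku (-0.70, edgeR adjusted p = 0.00932, both Aged ovaries under all Control ovaries), against -0.26 (edgeR adjusted p = 0.533) with it. Omd was at 15.2, 21.3, 17.8 and 15.2 CPM in Control, at 7.81, 8.54 and 7.22 CPM in Aged, and at 14.6, 4.14 and 14.7 CPM in Aged+CF. All 3 Aged ovaries were under all 4 Control ovaries, and Aged+CF 32 was the lowest of all. Prelp, at 88.5 to 102 CPM in Control, 117 to 121 CPM in Aged and 87.9 to 109 CPM in Aged+CF, had a log2 fold change of 0.31 (SE 0.09, edgeR adjusted p = 0.0465) in Aged vs Control, higher in 3 of 3 Aged ovaries but by under 1.5-fold, so it was not called. Its value in Aged+CF vs Aged was -0.25 (SE 0.10, unadjusted p = 0.0292). Asporin (Aspn) had a log2 fold change of -0.82 in Aged+CF vs Aged (unadjusted p = 0.0307, edgeR adjusted p = 0.263), with group means of 26.8 and 47.3 CPM and overlapping ranges. That call rests on Aged 34, at 71.1 CPM against 28.5 and 42.3 CPM in Aged 31 and Aged 33, and without it the value was -0.42 (unadjusted p = 0.154).

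Without Aged 34, 9 of the 68 listed genes rose and 8 fell in Aged vs Control at edgeR adjusted p, beside 16.1% of all genes in that fit, and each of the 10 named above with a call was called there too. Aggrecan (Acan), the cartilage proteoglycan, was at 42.7 CPM in Aged 34 and at 1.61 and 2.05 CPM in Aged 31 and Aged 33. For Acan in Aged vs Control the log2 fold change was 1.97 (edgeR adjusted p = 0.167) with Aged 34 and -1.08 (edgeR adjusted p = 0.0113, lower in both remaining Aged ovaries than in all 4 Control ovaries) without it. Without Aged 34, 2 listed genes rose in Aged+CF vs Aged by the adjusted p of edgeR (Acan, 1.12, and Nyx, 1.34) and 3 fell (Chst1, -2.68, Xylt1, -1.50, and Uap1, -0.61), beside 2.87% of all genes. At unadjusted p the counts there were 5 higher and 7 lower, beside 12.2%. For Aged+CF against Control without Aged 34, edgeR called 0 of 68 at adjusted p and 3 higher and 3 lower at unadjusted p, beside 1.8% and 10.3% of all genes.

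By position in GRCm38 (GENCODE M21), the members fall on 8 chromosomes, and some lie beside their relatives. Dcn (ENSMUSG00000019929, chr10:97479609-97518143, plus strand) and Lum (ENSMUSG00000036446, chr10:97565128-97572703, plus strand) open a run with Kera and Epyc of 203 kb that holds no other protein-coding gene. Kera had 2 counts and Epyc 0 over all 10 ovaries, so of 4 neighbours only Dcn and Lum were measurable at this depth. Ogn (ENSMUSG00000021390, chr13:49608046-49624501, plus strand) closes a run with Ecm2, Aspn and Omd of 119.7 kb. Hyal2 (ENSMUSG00000010047, chr9:107567945-107572779, plus strand), Hyal1 (ENSMUSG00000010051, chr9:107576927-107581710, plus strand) and Hyal3 lie within 19.4 kb.

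The remaining members are Has1 (ENSMUSG00000003665, chr17:17843323-17855205, minus strand), Has3 (ENSMUSG00000031910, chr8:106870242-106884566, plus strand), Cd44 (ENSMUSG00000005087, chr2:102811141-102901665, minus strand), Bgn (ENSMUSG00000031375, chrX:73483602-73495933, plus strand) and Fmod (ENSMUSG00000041559, chr1:134037254-134048277, plus strand). Fmod lies on the same chromosome as the pair Optc and Prelp (chr1:133897199-133921414). Hyal1 overlaps Hyal3 and Naa80 on its own strand, so that reads in the shared stretch cannot be told apart by strand. On the other strand Hyal1 overlaps Gm16343, Has3 overlaps Chtf8, Hyal2 overlaps Gm9917, Cd44 overlaps Gm23731 and Ogn overlaps Cenpp. The strand used in counting is not given in the labels, which makes the counts of these genes uncertain where they overlap.

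Over the 10 ovaries, Dcn and Lum had a Pearson r of 0.95 in log2 CPM, and 0.76 over the 9 ovaries without Aged 34. The r of Dcn with Ogn was 0.67 and 0.05 in the same order, and that of Lum with Ogn 0.51 and -0.43, so these values rest on Aged 34. Of all other genes tested with a mean of at least 1 CPM, the gene most like Dcn was Matn2 (r = 0.99, and 0.94 without Aged 34), and those most like Ogn and Bgn were Spon1 (0.98 and 0.96) and Zhx2 (0.99 and 0.98). For Fmod it was Trim6 (0.92 and 0.92), for Has1 Gm20033 (0.94 and 0.94), for Has3 Hnrnpll (0.94 and 0.94), for Hyal1 Bcas3 (0.89 and 0.88), for Hyal2 Zg16 (0.97 and 0.90) and for Cd44 Gm6352 (0.94 and 0.87). All ovaries share the group differences and the scaling, and each is the highest of many genes, so these r values are a description over n = 10 ovaries.

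Promoters of 7 of the 10 members were found in RefSeq (GRCm38.p6, 250 bases before to 50 after the start), not those of Has3, Dcn and Lum. The sequences of Has1 and Fmod are shown because these members passed the looser call in a comparison, Has1 higher in Aged+CF vs Aged and Fmod lower in Aged+CF vs Control. Searched on both strands were the TATA box TATAAA, the cAMP response element TGACGTCA and the AP-1 site TGACTCA, none of which contains another, and they were found in 13.6%, 1.79% and 5.2% of 32851 promoters. Positions in these promoters count from the RefSeq start, which can differ from the GENCODE start given above. In Has1 (chr17:17855139-17855438, minus strand) the capitals mark TGACGTCA, which starts at position -83 and reads the same on both strands. In Fmod (chr1:134037004-134037303, plus strand) none of the 3 motifs is in this window, so it has no capitals. Ogn holds TATAAA on both strands, overlapping, at positions -229 and -227, and the other 4 promoters hold none of the 3.
Has1: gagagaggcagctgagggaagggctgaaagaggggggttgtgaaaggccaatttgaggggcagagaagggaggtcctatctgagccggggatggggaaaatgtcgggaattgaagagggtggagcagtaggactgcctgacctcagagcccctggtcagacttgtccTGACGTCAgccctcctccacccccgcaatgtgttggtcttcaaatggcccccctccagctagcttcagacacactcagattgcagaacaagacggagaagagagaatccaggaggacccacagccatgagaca
Fmod: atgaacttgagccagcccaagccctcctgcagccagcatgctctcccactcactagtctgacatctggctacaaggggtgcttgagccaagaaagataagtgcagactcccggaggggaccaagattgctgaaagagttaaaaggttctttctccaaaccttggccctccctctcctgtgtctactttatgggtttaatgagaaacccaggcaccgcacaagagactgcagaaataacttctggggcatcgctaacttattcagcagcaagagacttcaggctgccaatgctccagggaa
A match is a match of letters only, and GC content was 57.0% for the Has1 promoter and 51.0% for the Fmod promoter.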

How the data were processed

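RNA-seq of 10 ovaries was used. The authors mapped reads with TopHat to GRCm38.p4 and deposited a table with a raw read count and an FPKM value per gene and ovary, the FPKM by Cufflinks 2.1.1. The deposited count is an unnormalized number of reads. The deposited FPKM is that count scaled by the library total and a constant for each gene, which held within 0.1% in 32782 of 32782 genes checked. That this constant is the gene length was not checked. All per-sample columns were used (0 left out). Counts of all 55487 genes were filtered with filterByExpr (18956 kept), scaled by TMM and fitted with edgeR 4.0 (quasi-likelihood F test, two-sided, 1 mean per group, 7 residual degrees of freedom) in R 4.3. P-values were adjusted by Benjamini-Hochberg over all genes tested. They set a group difference against the spread between these ovaries, of which the 3 groups share 1 estimate in the fit of all 10 ovaries. CPM are TMM-scaled, and log2 CPM for correlations used a prior count of 2. SE come from the fold change and the F statistic. Calls at adjusted p follow the methods of the study and calls at unadjusted p its results. Alternatives were no filter, DESeq2 size factors, the DESeq2 1.42 Wald test, only the compared groups, a replicate block, and each of the 10 ovaries left out. The counts, lists and pathway genes without Aged 34, the lists by DESeq2, the alternatives for called pathway genes, and the search of promoters for motifs were added after seeing the data, and genes named for a change without Aged 34 were chosen after their values were seen. Named were all 10 members. Of the other pathway genes, those called by edgeR at adjusted p with all ovaries were named. So were those that passed the looser call in Aged+CF vs Aged in that fit. The other pathway genes named were chosen after their values were seen, and naming the 3 per list with the smallest unadjusted p was not followed throughout. For likeness the rule took the gene with the highest Pearson r. A likeness result is not reported here. Positions came from GENCODE M21, in which 55227 of the 55487 identifiers were found. The members and lists were chosen with earlier results of these data known.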

Additional observations from a re-analysis of the deposited data

Results flagged for a closer look

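Among 10 tests of single ovaries within the 4 Control ovaries, 1 for each member, 2 found an ovary far from the other 3, and chance gives about 1 in 20. Fmod in Control 33 was at 19.9 CPM, and its gap to the next ovary was 0.852 of the group's range. Ogn in Control 31 was at 209 CPM, with a gap of 0.851 of the range. Groups of 3 ovaries were not tested in this way, so Aged 34 could not be found by it.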

How the results depend on the processing

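Of 150 alternative values of the members' log2 fold changes in each comparison, 141 kept their sign and their side of the adjusted threshold in each, and 6, 9 and 7 turned sign with age, with treatment against Aged and with treatment against Control. The cause of the changes that follow was not tested.

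In Aged vs Control, DESeq2 called 1 member at adjusted p, leaving out single ovaries gave 0 to 1 at adjusted and 1 to 3 at unadjusted p (beside 3041 to 4282 of all genes at unadjusted p), and all genes called at adjusted p were 80 with the replicate block and 1081 (without Control 32) to 3112 (without Aged 34) with single ovaries left out. Log2 fold changes over single ovaries left out ran from -0.077 to 0.75 for Cd44, -0.30 to 1.15 for Dcn, -0.056 to 0.99 for Lum and -0.37 to 0.27 for Ogn, and the block gave -0.038 for Ogn.

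In Aged+CF vs Aged, 0 members were called at unadjusted p with only the compared groups and 0 with the block, and 0 to 2 with single ovaries left out. All genes called at adjusted p were 2 without the filter, 441 by DESeq2, 2 with only the compared groups, 0 by edgeR with the block (888 at unadjusted p) and 1 to 556 with single ovaries left out (1170 to 2360 at unadjusted p). The block gave 0.033 for Cd44. Single ovaries left out gave -0.10 to 0.79 for Hyal1, -0.47 to 0.36 for Cd44, -0.80 to 0.64 for Dcn, -0.58 to 0.45 for Lum, -0.063 to 0.29 for Bgn and -0.60 to 0.047 for Ogn.

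In Aged+CF vs Control, DESeq2 and the fit of only the compared groups each called 1 member at adjusted p, and the block called 2 at unadjusted p (beside 1311 of all genes). All genes called at adjusted p were 528 by DESeq2, 487 with only the compared groups, 9 with the block and 7 to 348 with single ovaries left out (859 to 2000 at unadjusted p). The block gave -0.60 for Has1, 0.38 for Hyal1 and -0.10 for Dcn, and single ovaries left out gave -0.19 to 0.58 for Has1 and -0.37 to 0.18 for Hyal1.

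Replicate numbers recur across groups, but they name different animals. Number 30 occurs only in Aged+CF, so with the block Aged+CF 30 does not inform any group difference. The only number that Aged and Aged+CF share is 34, so their only pair of the same number includes Aged 34. The block also leaves fewer residual degrees of freedom than the 7 of the main fit. Over 6 pairs of ovaries with the same number in different groups, the correlation over all genes tested of deviations from the group means ran from -0.18 to 0.15, and 2 were over 0.1, so the block is given as an alternative only. With 3 or 4 ovaries a group and counts as low as 3 for Has1, depth limits what Has1 can show.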
